A study of Mus musculus with 2 samples.

Results

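The genes of 10 epithelial antimicrobial and acute-phase proteins, Ang4, Lypd8, Saa1, Saa2, Saa3, Lcn2, Itln1, Lyz1, Pla2g2a and Dmbt1, were compared between the intestine of mice labelled wild-type (WT) and mice labelled ERAP1 heterozygous (ERAP1+/-). They are 10 of the 40879 gene symbols in the deposited tables, all 10 were found there by symbol, and they were chosen by their function with earlier results of the same libraries known, so that their differences are given as a description and no difference is tested. Each genotype is represented by 1 library, made from RNA pooled from 3 mice on the C57BL/6 background and read from the 3' ends of transcripts. The ERAP1+/- mice descend from 1 clone of embryonic stem cells with a tm1a allele of ERAP1, whose loxP sites flank exons 6 and 7, by a cross with a Cre strain that is not named in the sources used here. The mice were 8 weeks old when assigned to groups, and their age when the sequenced tissue was taken is not stated. The labels name no treatment for either library, and the methods call the animals germ-free while housed in a specific pathogen-free facility.

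The gut epithelium meets its microbes with secreted and surface proteins. Angiogenins, lysozyme, secreted phospholipase and intelectin are released by Paneth, goblet and deep crypt cells, while Lypd8 and Dmbt1 act at the surface and in the mucus, where they bind bacteria. Serum amyloid A proteins and lipocalin-2 belong to the acute-phase response: the former carry retinol and lipids and are made by liver, epithelium, macrophages or fat according to the gene, and the latter takes up bacterial siderophores and so withholds iron. Several of these genes are known to respond to microbial colonization and to cytokines of the Il22 and Il1b type.

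In all, 8114826 reads were counted for WT and 8907515 for ERAP1+/-. Levels are given as CPM, the counts of a gene per 1000000 counts of its library, with library sizes adjusted by TMM (trimmed mean of M values), so that 1 read was worth 0.129 CPM for WT and 0.107 CPM for ERAP1+/-. Intervals are exact 95% intervals of the counts and take in no error but that of counting, since the spread between mice or pools cannot be estimated from 1 library. Erap1 itself, the gene that was targeted, had 229 WT reads and 2 ERAP1+/- reads, a ratio of 0.00730 (95% interval 0.000878 to 0.0267). A heterozygote keeps an intact copy of the gene, so this near loss of reads goes against the heterozygous label, and ERAP1+/- stands below for the label of the library, also in each direction given. The reads come from the end of the transcript, outside exons 6 and 7, and so do not report on the deleted part itself. The methods name intestine tissue as the source of the RNA, and genes of its epithelium were present in both libraries. All 16 genes of a list of intestinal epithelium (Epcam, Krt8, Vil1, Cdh17 and others) were well counted, and none differed past 2-fold. Their summed level was 12032 CPM in WT and 10107 CPM in the library labelled ERAP1+/-.

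The reads come from transcript ends, so that copies with similar ends could exchange counts. Saa1 and Saa2, which share 95.1% of their 366 coding bases, are the closest pair among the 10 genes, and Saa3 shares 79.1% of aligned bases with Saa1. The last 90 coding bases before the stop codon are shown for the 3 genes, from GENCODE M21 transcripts on GRCm38. Capitals mark bases that differ from Saa1 at the same position.

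Saa1, chr7:46740707-46740796, minus strand: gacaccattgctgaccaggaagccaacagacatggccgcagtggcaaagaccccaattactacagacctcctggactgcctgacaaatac

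Saa2, chr7:46754017-46754106, plus strand: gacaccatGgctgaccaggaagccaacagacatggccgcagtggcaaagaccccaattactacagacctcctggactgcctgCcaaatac

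Saa3, chr7:46712129-46712218, minus strand: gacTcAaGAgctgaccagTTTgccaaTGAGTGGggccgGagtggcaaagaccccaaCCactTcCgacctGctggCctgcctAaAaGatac

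In this stretch Saa2 differs from Saa1 at 2 positions and Saa3 at 24. Over the last 400 bases of the transcript, no window of 75 bases, the length of the reads, was identical between Saa1, Saa2 or Saa3 and a transcript of any other gene. Of the 326 such windows, 30 (9.20%) of Lyz1 were identical in Lyz2, and 5 (1.53%) of Ang4 in Ang5. For the other members none was shared. Counts of Lyz1 and Lyz2 are therefore uncertain where a read fell in the shared windows, and reads with errors could still move between Saa1 and Saa2.

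Sequences before the transcript start were available for 8 of the 10 genes, in the RefSeq promoter table of GRCm38.p6. The 250 bases before the start are shown for the 2 genes with the largest rise, Ang4 and Saa3, for Saa1, the neighbor of Saa3 with little difference, and for Lypd8, the gene with the most reads. Capitals mark matches to any of 5 motifs.

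Ang4, chr14:51773591-51773840, minus strand: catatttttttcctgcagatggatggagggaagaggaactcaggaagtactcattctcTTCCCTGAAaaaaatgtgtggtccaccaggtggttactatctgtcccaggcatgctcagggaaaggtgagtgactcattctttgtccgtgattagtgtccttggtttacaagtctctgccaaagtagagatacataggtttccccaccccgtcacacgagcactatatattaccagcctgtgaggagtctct

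Saa3, chr7:46715677-46715926, minus strand: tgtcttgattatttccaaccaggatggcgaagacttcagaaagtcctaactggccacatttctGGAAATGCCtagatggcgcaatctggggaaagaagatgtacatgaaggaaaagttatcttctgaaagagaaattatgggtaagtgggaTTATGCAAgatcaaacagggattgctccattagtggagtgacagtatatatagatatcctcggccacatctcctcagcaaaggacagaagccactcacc

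Saa1, chr7:46742981-46743230, minus strand: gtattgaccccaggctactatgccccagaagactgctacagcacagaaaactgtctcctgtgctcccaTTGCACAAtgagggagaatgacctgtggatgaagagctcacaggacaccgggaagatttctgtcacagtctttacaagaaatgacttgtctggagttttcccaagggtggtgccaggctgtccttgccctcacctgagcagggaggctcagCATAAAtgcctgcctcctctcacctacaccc

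Lypd8, chr11:58378782-58379031, plus strand: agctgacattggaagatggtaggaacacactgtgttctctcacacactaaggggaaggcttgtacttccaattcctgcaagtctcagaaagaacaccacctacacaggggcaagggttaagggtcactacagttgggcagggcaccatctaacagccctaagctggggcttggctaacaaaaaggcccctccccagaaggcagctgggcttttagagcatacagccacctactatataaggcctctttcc

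The motifs were searched on both strands as TATAAA for the TATA box, as TTGCNNAA for C/EBP, as TTCNNNGAA for STAT, as GGNNTTTCC for a shortened form of NF-kB, and as TTTATG for CDX, which read on the other strand matches the TATA letters in all but 1 position. The C/EBP motif was found before 5 of the 8 genes (Saa1, Saa2, Saa3, Lcn2 and Lyz1) and in 9.56% of all 32851 promoters of that length. Saa1 and Saa2 are not separate cases here, as their promoters are identical in 95.6% of aligned bases. The CDX letters were found before 4 (Saa1, Saa2, Lcn2 and Itln1; 10.8% of all promoters), the NF-kB form before Saa3 and Itln1 (4.93%), the STAT motif before Ang4 (7.02%) and the TATA letters before none (12.4%). A stretch before Saa1, ggagttttcc, is 1 base longer than the NF-kB form and was not matched. The search therefore does not set Saa3 and Saa1 apart for NF-kB. These matches are letters in a window, not sites of binding.

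Among the 10 genes, 3 were more than 2-fold higher in the library labelled ERAP1+/-, Saa3, Ang4 and Pla2g2a, and 1 was more than 2-fold lower, Lcn2, on the scale of log2(CPM + 1). The genes with most reads, Lypd8, Saa1 and Dmbt1, stayed within 2-fold. Counting error alone leaves the ratio of 3 genes above 1, that of 5 genes (Lypd8, Dmbt1, Saa1, Lyz1 and Lcn2) below 1, and that of Itln1 and Saa2 on either side. The median log2 difference of the 9 genes with at least 10 reads over both libraries was -0.08, and that of the 16142 genes with as many reads was 0.0020. Members thus differed in both directions.

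**Figure D1:**
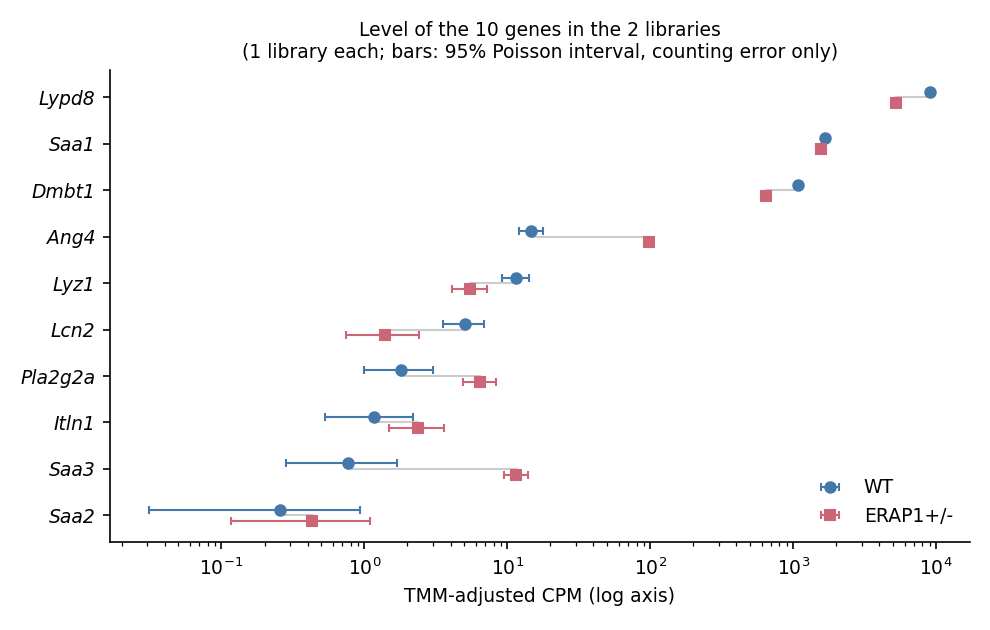
TMM-adjusted CPM of the 10 genes (log axis) in the WT library (circles) and the library labelled ERAP1+/- (squares), with 95% Poisson intervals that cover counting error only. Lypd8, Saa1 and Dmbt1 lie above 600 CPM in both libraries, while Saa3 moves from 0.772 to 11.5 CPM and Ang4 from 14.7 to 97.9 CPM.

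The background of such differences is as follows. Of the 16142 genes with at least 10 reads over both libraries, 2.99% were more than 2-fold higher in the library labelled ERAP1+/- and 5.63% more than 2-fold lower, against 3 and 1 of the 9 members. The same shares are the background for each gene list counted below. Of the 8013 genes whose log2(CPM + 1) reached 4 in either library, 1.39% were higher and 3.96% lower. Ang4 was the only member past 2-fold among the 4 members that passed that level, and it passed through the library labelled ERAP1+/- alone, since its WT value was 3.97. The shares depend on the scaling: the 111 higher and 317 lower genes became 166 and 248 with the total count alone, and 249 and 203 with scaling by the summed reads of the epithelial list. These scalings shifted the median log2 difference over all genes past the level by 0.12 and 0.25. As the 10 genes were chosen with such results known, their share is not evidence about the class.

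**Figure D2:**
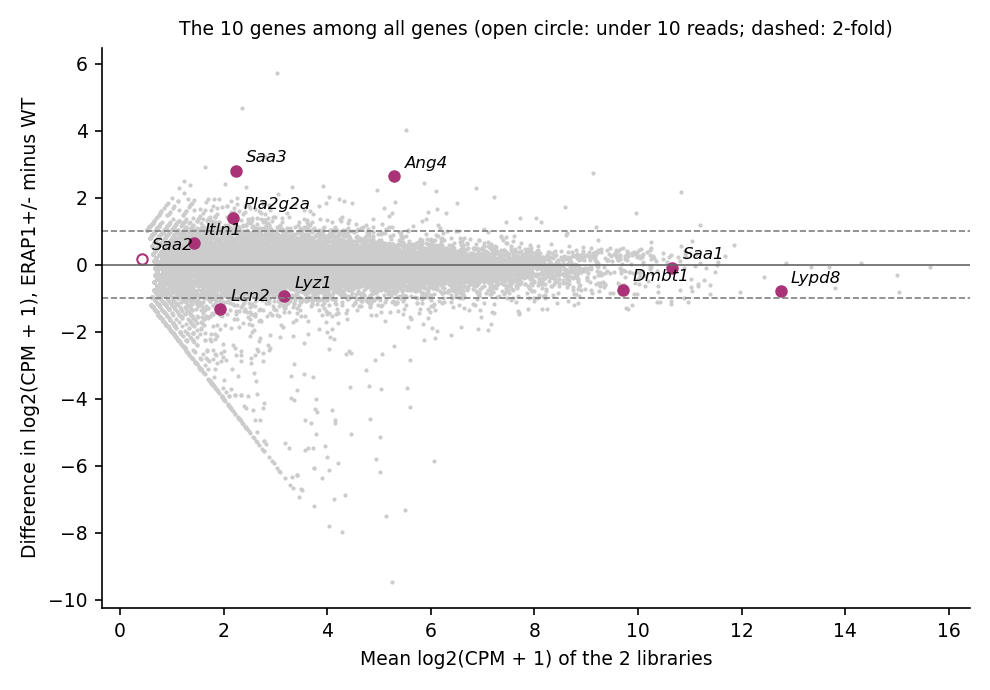
Difference in log2(CPM + 1), ERAP1+/- minus WT, against the mean log2(CPM + 1) of both libraries, for all genes with at least 10 reads (gray) and the 10 members (filled, or open for Saa2 with 6 reads). Saa3 (2.82) and Ang4 (2.66) stand highest among the members, and Lcn2 (-1.33) lowest.

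Ang4 encodes a ribonuclease of the angiogenin family that kills bacteria and is secreted by cells of the crypt. It has 2 exons and spans 51763878 to 51773590 of chromosome 14 (GRCm38, minus strand). WT gave 114 reads (14.7 CPM) and ERAP1+/- 911 reads (97.9 CPM). The ratio was 6.68 (95% interval 5.49 to 8.18). Its relative Ang on the same chromosome, which encodes angiogenin, had 107 and 133 reads, a ratio of 1.04 (0.799 to 1.35). Within each library, a quantity that no scaling can move, Ang4 took 51.6% of the reads of the pair in WT (Wilson 95% interval 45.0% to 58.1%) and 87.3% in the library labelled ERAP1+/- (85.1% to 89.1%). Ang2, Ang5 and Ang6 had no read in either library. This does not tell whether Ang4 lost reads in the few windows shared with Ang5, since reads that match both may have been left out.

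Genes of goblet and deep crypt secretory cells, which include known sources of Ang4 in the colon, were also higher. All 17 genes of that list had more normalized reads in the library labelled ERAP1+/-, 7 of them past 2-fold and none lower past 2-fold, with a median log2 difference of 0.89 and a summed level of 10039 CPM in WT and 17429 CPM in the library labelled ERAP1+/-. Reg4, a lectin of deep crypt secretory cells, rose 2.94-fold (2.84 to 3.04), Atoh1, the factor that sets the secretory lineage, 2.67-fold (2.12 to 3.39), and Muc2, the gel-forming mucin, 2.29-fold (2.24 to 2.34). The ratio of Ang4 was 2.27 times that of Reg4 and 2.92 times that of Muc2. In bulk RNA, more cells of a type and more RNA per cell cannot be told apart, and the part of these cells in the difference of Ang4 was not tested.

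**Figure D3:**
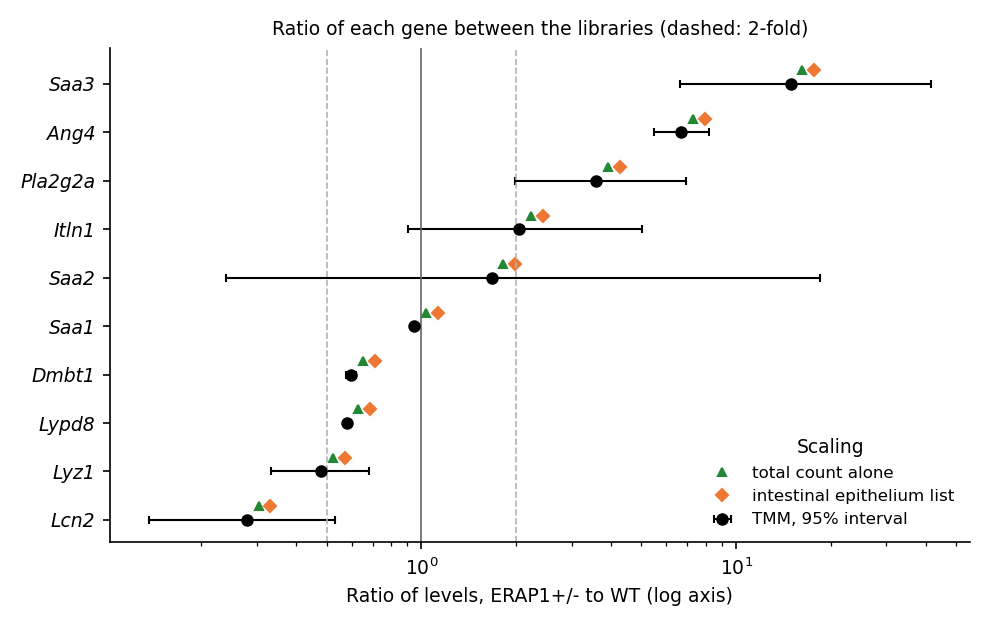
Ratio of levels, ERAP1+/- to WT (log axis), for each member with TMM scaling and its 95% interval (circles), with the total count alone (triangles) and with scaling by the intestinal epithelium list (diamonds). Saa3, Ang4, Pla2g2a and, with an interval that includes 1 under TMM, Itln1 lie above 2 and Lcn2 lies below 0.5 with each scaling, while Saa1 crosses 1.

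The serum amyloid A genes stand together on chromosome 7 of GRCm38, in the order Saa3 (46711998 to 46715700), Saa4, Saa1 (46740497 to 46742980) and Saa2 (46751790 to 46754313), within 42316 bases. They behaved differently. Saa1, an acute-phase apolipoprotein made by the colon epithelium as well as the liver, had 12924 reads (1663 CPM) in WT and 14631 reads (1573 CPM) in the library labelled ERAP1+/-. Its ratio was 0.946 (0.923 to 0.968) with TMM, 1.03 with the total count alone and 1.13 with scaling by the epithelial list, so that its direction depends on the scaling. Saa2, its near-identical partner on the opposite strand, had 2 and 4 reads, a ratio of 1.67 (0.239 to 18.5) that allows a difference either way. Saa4, the constitutive liver form, had 0 and 1 reads.

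Saa3, the form known from macrophages and fat cells as well as epithelium, had 6 reads (0.772 CPM) in WT and 107 reads (11.5 CPM) in the library labelled ERAP1+/-. The ratio of 14.9 (95% interval 6.62 to 41.5) was the highest among the 10 genes, and the wide interval reflects the 6 WT reads. Of all reads on Saa1, Saa2 and Saa3, Saa3 took 0.0464% in WT (Wilson interval 0.0213% to 0.101%) and 0.726% in the library labelled ERAP1+/- (0.601% to 0.876%), while Saa1 took 99.9% and 99.2%. By reads the family was almost wholly Saa1 in both libraries.

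Cells that are known to make Saa3 were counted through their markers. Of 12 macrophage genes with enough reads, none passed 2-fold, and the summed level of that list was 271 CPM in WT and 348 CPM in the library labelled ERAP1+/-. Of 8 adipocyte genes, 2 were more than 2-fold higher, Adipoq (34 and 124 reads), the fat cell hormone, and Cfd (163 and 558 reads), and 1 was lower, Retn (61 and 30 reads), whose log2 difference of -1.07 became -0.96 with the total count alone and -0.86 with scaling by the epithelial list, within 2-fold. The summed adipocyte level was 111 CPM in WT and 191 CPM in the library labelled ERAP1+/-, and Plin1, a coat protein of fat droplets, had 5 and 15 reads. The part of these cells in the difference of Saa3 was not tested.

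Pla2g2a encodes a secreted phospholipase that cleaves bacterial membranes. The C57BL/6 strain is known to carry a natural frameshift in this gene, and GENCODE M21 lists it as a polymorphic pseudogene and RefSeq as a transcribed pseudogene (plus strand of chromosome 4, 138831857 to 138835186). Transcripts were nonetheless counted, with 14 reads (1.80 CPM) in WT and 60 reads (6.45 CPM) in the library labelled ERAP1+/-, a ratio of 3.58 (1.98 to 6.94). Neither library reached a log2(CPM + 1) of 4. Among the other secreted phospholipases, Pla2g10 had 1000 and 1218 reads (ratio 1.02, 0.935 to 1.11), Pla2g2f 47 and 66 reads (1.17, 0.795 to 1.74) and Pla2g5 142 and 285 reads (1.68, 1.37 to 2.07).

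Itln1 encodes intelectin, a lectin that binds sugars on microbes, and had 9 reads in WT and 22 in the library labelled ERAP1+/-, a ratio of 2.04 (0.904 to 5.04). The interval includes 1, and on the log2(CPM + 1) scale the difference was 0.64. Its gene (minus strand of chromosome 1, 171518122 to 171535294) was counted at 1.16 and 2.36 CPM.

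Lyz1, the lysozyme of Paneth cells, lies 5475 bases from Lyz2, the lysozyme of macrophages, on chromosome 10 (117287797 to 117292868). Lyz1 had 89 reads (11.5 CPM) in WT and 51 reads (5.48 CPM) in the library labelled ERAP1+/-, 2.09-fold lower (1.46 to 3.01), which on the log2(CPM + 1) scale was -0.94 and within 2-fold. Lyz2 had 146 and 296 reads and was 1.69-fold higher (1.38 to 2.08). By share of the lysozyme reads, Lyz1 went from 37.9% in WT (Wilson interval 31.9% to 44.2%) to 14.7% in the library labelled ERAP1+/- (11.4% to 18.8%). Their last 400 transcript bases are identical in 97.2% of aligned positions, and the methods do not state how reads that match both were counted.

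Ang4, Itln1, Lyz1 and Pla2g2a are known as Paneth cell products of the small intestine, but the markers that define Paneth cells were at or near 0 in both libraries. All 22 alpha-defensin genes of the Paneth list, its defining markers, had no read in WT or ERAP1+/-. That allows up to 0.386 and 0.322 CPM each, unless reads that match several of these genes were left out of the counts. Shared windows were not examined for these genes. Mmp7, the protease that activates defensins, had 0 and 5 reads. The summed level of the list, 7.46 CPM in WT and 17.6 CPM in the library labelled ERAP1+/-, came almost wholly from Guca2b (58 and 159 reads), which other epithelial cells make too. Of 14 small intestine genes, 5 had at least 10 reads and 1 of them, Fabp2 (56 and 299 reads), was more than 2-fold higher, while Sis, Apoa4 and Gata4 had no read. The list summed to 210 CPM in WT and 198 CPM in the library labelled ERAP1+/-, of which Slc5a1 made up 164 and 129 CPM.

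Lypd8, a surface protein of colon enterocytes that binds flagella and keeps bacteria off the epithelium, had by far the most reads of the 10 genes. With 70445 reads it took 0.868% of the WT library, where it ranked 8 among all genes by reads, and with 48750 reads 0.547% of the library labelled ERAP1+/-, where it ranked 9. Its level was 9066 CPM in WT and 5241 CPM in the library labelled ERAP1+/-, 1.73-fold lower (1.71 to 1.75). The gene lies on the plus strand of chromosome 11 (58379043 to 58390728). Its relative Lypd8l was also lower, 4.46-fold (3.38 to 5.96), with 242 and 65 reads. Of all reads on the 10 genes, Lypd8 took 76.6% in WT and 69.1% in the library labelled ERAP1+/-.

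Dmbt1, a large scavenger-receptor protein that binds bacteria in mucus, showed nearly the same ratio as Lypd8. It had 8368 reads (1077 CPM) in WT and 5986 reads (643 CPM) in the library labelled ERAP1+/-, 1.67-fold lower (1.62 to 1.73), and lies on chromosome 7 from 131032053 to 131121630. Both genes stayed lower with the total count alone and with scaling by the epithelial list, at the least by 1.45-fold for Lypd8 and 1.41-fold for Dmbt1. Their intervals are narrow because reads are many, and such intervals say nothing of the spread between pools of mice.

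The surface colonocyte list, which holds genes of the cells that carry Lypd8, had 11 of 15 counted genes lower and 4 higher, with a median log2 difference of -0.60. Of these, 4 were past 2-fold lower: Krt20, the keratin of mature surface cells (2.31-fold, 2.20 to 2.42), Car4, a carbonic anhydrase (2.16-fold, 2.11 to 2.22), Ceacam20 (2.11-fold) and Mall (2.06-fold), while Dpep1 and Prap1 were higher. With scaling by the epithelial list none was past 2-fold lower and the median was -0.35. The list summed to 9405 CPM in WT and 6240 CPM in the library labelled ERAP1+/-, a ratio of 0.664 beside 0.578 for Lypd8, and the part of these cells in the differences of Lypd8 and Dmbt1 was not tested.

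**Figure D4:**
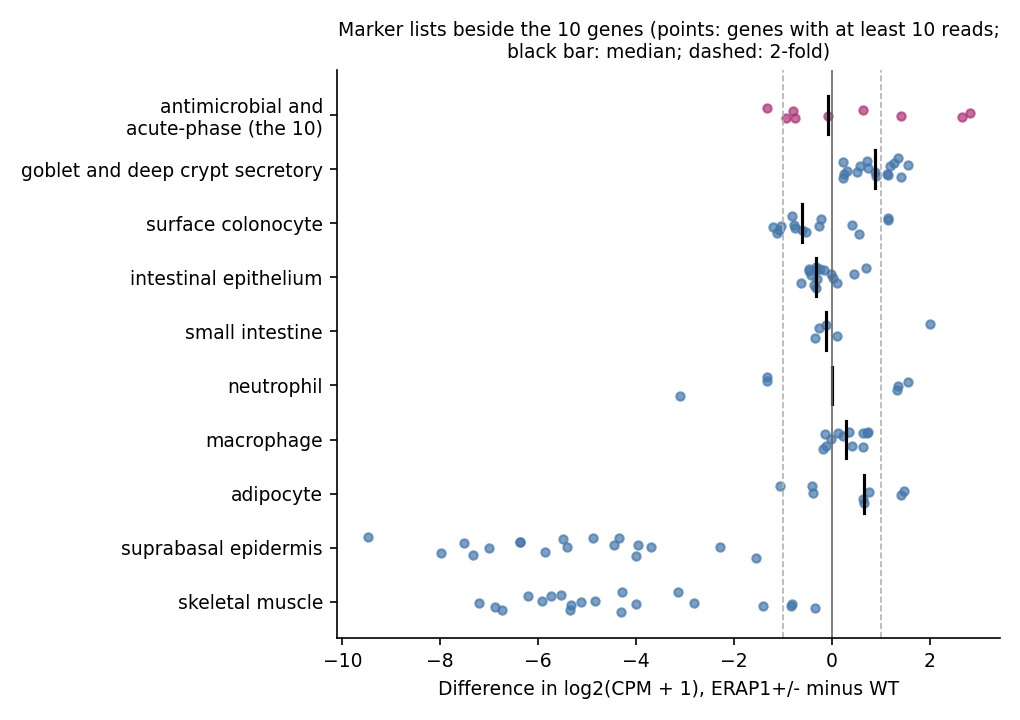
Difference in log2(CPM + 1), ERAP1+/- minus WT, for the members and for 9 marker lists (points: genes with at least 10 reads, which leaves out Saa2; black bars: medians, not drawn for the epidermal and muscle lists, where some genes had no ERAP1+/- read). All 17 goblet and deep crypt genes lie above 0, 11 of 15 surface colonocyte genes lie below 0, and all epidermal and muscle genes lie below 0.

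Lcn2, which encodes the siderophore-binding lipocalin-2 and is widely used as a sign of gut inflammation, was the only member more than 2-fold lower. It had 39 reads (5.02 CPM) in WT and 13 reads (1.40 CPM) in the library labelled ERAP1+/-, 3.59-fold lower (1.88 to 7.33), with a log2 difference of -1.33. It is a gene of chromosome 2 (32384633 to 32388252, minus strand), and its level was below a log2(CPM + 1) of 4 in both libraries. Lcn2 and Saa3, both acute-phase genes, differed in opposite directions. Saa3 was also below that level in both libraries, and what sets these directions was not tested.

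Neutrophils store lipocalin-2 in their granules, and the neutrophil list was divided. Of 6 genes with at least 10 reads, S100a8 (49 and 165 reads), S100a9 (52 and 171) and Retnlg (0 and 18) were more than 2-fold higher, and Ly6g (2867 and 1367), Ltf (95 and 5) and Lcn2 itself were more than 2-fold lower. The other genes of the list had under 10 reads over both libraries. Among granule genes, Elane had no read in either library, Mpo and Ngp had 0 and 1 reads each, and Camp had 0 and 3. Csf3r had 1 and 5 reads, Cxcr2 3 and 1, Fpr1 1 and 1, and Mmp8 and Fpr2 2 and 6 each. The summed level was 400 CPM in WT and 190 CPM in the library labelled ERAP1+/-, of which Ly6g made up 369 and 147 CPM.

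Skin and muscle genes were also lower in the library labelled ERAP1+/-. All 18 counted genes of the suprabasal epidermis list were more than 2-fold lower in the library labelled ERAP1+/-, with a summed level of 3785 CPM in WT and 52.4 CPM in the library labelled ERAP1+/-, and of 20 skeletal muscle genes 17 were, with 1762 and 99.9 CPM. Among antimicrobial genes, Defb1, a beta-defensin, had 95 and 2 reads (ratio 0.0176, 0.00210 to 0.0653), Slpi, a protease inhibitor of mucous surfaces, 1340 and 370 reads (4.34-fold lower, 3.86 to 4.88), and Ltf, lactoferrin, which also binds iron, was 22.7-fold lower (9.41 to 71.7). Of the Lypd8 relatives, Lypd3 had 177 and 6 reads (35.3-fold lower, 15.9 to 97.5). Lypd5 had 59 and 0 reads, at least 18.6-fold lower by the exact 95% interval. The part of skin RNA in the difference of Lcn2 was not tested. Leaving the epidermal and muscle lists out of the scaling moved no member's ratio by as much as 1%. TMM trims the most extreme ratios in any case, so that result was largely fixed in advance. It says nothing of how skin or muscle RNA bears on the members.

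The list of relatives of the 10 genes was mostly within 2-fold. Of 21 paralogs with at least 10 reads none was more than 2-fold higher and 6 were more than 2-fold lower (Rnase1, Ptgds, Lypd2, Lypd3, Lypd5 and Lypd8l). Of all genes with as many reads, 2.99% were higher and 5.63% lower. Reads were few for Rnase1 (29 and 4), Ptgds (11 and 1) and Lypd2 (18 and 1). The median log2 difference of the paralogs was -0.07 (0.05 with the total count alone), beside 0.0020 for all genes. Ptgds belongs to the lipocalin family of Lcn2 and Rnase1 to the ribonuclease family of Ang4.

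Other antimicrobial genes of the epithelium also differed in both directions. Of 28 with at least 10 reads, 8 were more than 2-fold higher and 4 lower, with a median log2 difference of 0.13. Among all genes with as many reads, the shares were 2.99% higher and 5.63% lower. These counts are not separate from those above, as Reg4, Muc2 and Retnlb are also in the goblet list and Ltf in the neutrophil list. Defb1 and Slpi were also given with the skin genes. The higher genes include the lectins Reg3b (1 and 546 reads; ratio 456, 81.5 to 18047) and Reg3g (0 and 232 reads, at least 64.6-fold against 3 WT reads), which share with Ang4 the secretion into the gut lumen. Nox1, an epithelial oxidase, had 20 and 111 reads (4.64-fold, 2.86 to 7.88), Retnlb, a goblet cell product that damages bacterial membranes, 36 and 118 reads (2.74-fold, 1.87 to 4.10), and Ccl20, a chemokine of the epithelium over lymphoid tissue, 2 and 36 reads (ratio 15.0, 3.87 to 129). Lgals3, a galectin, was lower with 22971 and 12664 reads (2.17-fold, 2.12 to 2.22), but its log2 difference of -1.12 became -0.99 with the total count alone and -0.87 with scaling by the epithelial list, within 2-fold.

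Most genes of the signals known to act upstream stayed within 2-fold. Of 32 genes with at least 10 reads, 28 stayed within 2-fold, 2 were higher and 2 lower (1 with scaling by the epithelial list), with a median log2 difference of -0.02 that became 0.11 with the total count alone. The cytokine genes Il22, Il6, Il17a, Il17f and Il13 had no read in either library, Tnf had 0 and 4, and Il1b, which drives acute-phase genes, had 9 and 37 reads (3.43-fold higher, 1.63 to 8.09). Il22ra2, the soluble receptor that holds back Il22, had 5 and 47 reads (7.85-fold higher, 3.14 to 25.3), and the epithelial receptor chain Il22ra1 460 and 329 reads (1.67-fold lower, 1.45 to 1.93). Nfkbiz, a nuclear partner of NF-kB that serves Lcn2 transcription, was 2.54-fold lower (2.18 to 2.96) with 537 and 253 reads. Stat3, which carries the Il22 signal, had 2131 and 1698 reads (ratio 0.666, 0.624 to 0.710). Whether any of these levels bears on the members was not tested.

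Other acute-phase genes were few in number. Of 11 with at least 10 reads, 2 were more than 2-fold higher, Mt2, a metallothionein (1385 and 4000 reads; 2.41-fold, 2.27 to 2.57), and Serpina3n, a protease inhibitor (66 and 172 reads; 2.18-fold, 1.63 to 2.94), and 1 was lower, Orm1 (20 and 3 reads; ratio 0.125, 0.0238 to 0.422). The median log2 difference was 0.25, and the fibrinogen genes of the liver, Fga, Fgb and Fgg, had no read. Receptors and partners of serum amyloid A and lipocalin-2, such as Scarb1, Cd36, Tlr2 and Slc22a17, had 10 genes with enough reads, none past 2-fold, and a median of -0.16 (0.07 with scaling by the epithelial list). The non-member genes named here that are neither past 2-fold at a log2(CPM + 1) of 4 nor defining markers, among them Lyz2, Ang, the phospholipases, Defb1, Ltf, Nox1, Retnlb, Ccl20, Orm1 and the cytokines and receptors of the Il22 and Il1b signals, were chosen after their values were seen.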

How the data were processed

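RNA pooled from 3 mice per genotype was sequenced as 1 library each with a 3' mRNA kit (single-end, 75 bases). The tables deposited by the authors hold counts per gene symbol, whole and not normalized. The study's methods name both STAR with HTSeq-count and Bowtie2 with RSEM, and the submitters' processing notes name Bowtie2, RSEM and GRCm38, so that the counter is not settled.

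TMM factors (0.958 for WT, 1.04 for ERAP1+/-) came from edgeR 4.0.16 (R 4.3.3), and ratios with exact conditional binomial intervals with scipy 1.17.1. With 1 library per genotype no test was run. A gene was called past 2-fold on log2(CPM + 1), among genes with at least 10 reads over both libraries or a value of at least 4 in 1 or both. Reads were not divided by length, so ranks and shares between genes are of 3'-end reads. Scripts were tested on simulated data.

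The members and 15 gene lists beside them were chosen with earlier results of these data known. The rule for named genes took the members, list genes past 2-fold at the level of 4 (up to 6 per list), and defining markers, and further genes were named after their values were seen. Alternatives were DESeq2 1.42.0 size factors, other scalings, thinning, a pseudocount of 0.1, other filters and a 4-fold threshold. Coordinates and sequences are from GENCODE M21 and RefSeq (GRCm38), which held all 10 symbols in GENCODE. Flow cytometry and PCR data were not used here, and the values of 1 listed gene are not reported here.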

Additional observations from a re-analysis of the deposited data

How the results depend on the processing

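No paired analysis was possible because WT and ERAP1+/- had 1 library each, and leaving out a library leaves no comparison. The number of members past 2-fold was 1 (Ang4, higher) with the level of 4, under every scaling, thinning, the pseudocount of 0.1, a level of 6 and a 4-fold threshold. With no filter on low values, or with at least 10 reads in 1 library, it was 4, of which 3 were higher and 1 lower. Over all genes, the count with the level of 4 was 428 in the main setting. It ran from 414 to 487 over the other scalings, thinning and the pseudocount of 0.1. The other counts over all genes were 1434 (no filter), 1390 (at least 10 reads in 1 library), 160 (level of 6) and 160 (4-fold). The median log2 difference of the members, -0.08, was 0.04 with the total count alone and 0.17 with scaling by the epithelial list. No member past 2-fold changed direction: over 7 scalings, thinning included, the ratio ran from 6.67 to 7.95 for Ang4, 14.7 to 17.7 for Saa3 and 3.55 to 4.26 for Pla2g2a, and Lcn2 was 3.02- to 3.59-fold lower. Depth limits Saa2, Itln1, Saa3, Pla2g2a and Lcn2, which had under 40 reads in 1 or both libraries.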
